A study of Mus musculus with 18 samples.

Results

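Fragments of nuclear glycine tRNA were followed in mouse sperm that carried or lacked Isca2, which encodes a mitochondrial iron-sulfur cluster assembly protein. A fragment was counted as tRNA-Gly when the first name in its annotation contained that term and was not marked as mitochondrial. This rule took 264 distinct sequences out of 207217 in the 4 sperm libraries, and 30668 of 2358974 reads. The libraries came from wild-type sperm (WT, 2 libraries) and from Isca2 -/- sperm (KO, 2 libraries). The wider series holds 18 samples, with oocyte transcriptomes and blastocyst methylomes that were not used here. The labels do not say whether the 2 libraries of a genotype came from separate animals, so the tests measure only the spread between these libraries, which may be technical. They give no age, strain or sorting step for the sperm, and the library protocol they repeat for every sample describes blastocysts.

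A tRNA is cut into shorter RNAs by nucleases that act mostly in its loops, and the pieces are named after the amino acid and the anticodon. Glycine is read by tRNAs with the anticodons GCC, CCC and TCC. Mature mouse sperm is known for a small RNA pool rich in tRNA fragments, among which pieces of the 5′ part of tRNA-Gly and tRNA-Glu are often the most abundant. Part of this load is gained during passage through the epididymis, and its amount has been linked in mice to the diet of the father.

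The sequences on which the results turn are shown 5′ to 3′, with T for U as in the deposited tables and with the anticodon in capitals. The first group holds the most abundant tRNA-Gly-GCC reads and 3 reads of the same series, which share their last base and differ in where they start. Positions count from 1 at the first base of a 73-nt chain of overlapping tRNA-Gly-GCC reads, in which the anticodon lies at 33 to 35.
GCC, 16 to 35: tggtagaattctcgcctGCC
GCC, 16 to 52: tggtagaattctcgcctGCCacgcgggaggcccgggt
GCC, 17 to 52: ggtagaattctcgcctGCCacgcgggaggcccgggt
GCC, 18 to 52: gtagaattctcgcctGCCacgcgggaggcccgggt
GCC, 19 to 52: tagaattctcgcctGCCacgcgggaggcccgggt
GCC, 20 to 52: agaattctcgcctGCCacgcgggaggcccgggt

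The second group shows the most abundant reads of the other glycine tRNAs, for comparison with the same stretch of tRNA-Gly-GCC.
CCC, 20 nt, first: tggtatcatgcaagattCCC
CCC, 20 nt, second: tggtagaattctcgcctCCC
CCC, 37 nt: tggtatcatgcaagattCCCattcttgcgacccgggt
TCC, 38 nt: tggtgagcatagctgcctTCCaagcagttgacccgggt
TCC, 37 nt: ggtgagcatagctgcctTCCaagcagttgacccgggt
TCC, 35 nt: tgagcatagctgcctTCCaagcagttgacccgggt

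The 2 reads below stand for the rare classes: a read marked as a 5′ end, which begins at position 1, and the only sequence named tRNA-Gly-ACC, in which no anticodon was marked.
GCC, 5′ end, 1 to 31: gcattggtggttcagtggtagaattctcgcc
ACC: gtccccggttcgaaaccgggcggaaacacc

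The RefSeq annotation of GRCm38.p6 lists 28 nuclear tRNA-Gly genes. Of these, 14 have the anticodon GCC and 7 have TCC, while 6 have CCC and 1 has ACC. A group of 9 tRNA-Gly genes lies on chromosome 1 between 171037997 and 171102827. The sequences of these genes were not used here, so no read was assigned to a single gene.

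The libraries held 205993 (WT 1), 703036 (WT 2), 703133 (KO 1) and 746812 (KO 2) reads of 20 to 45 nt. Ribosomal RNA took 68.2% of reads in WT 2 against 30.4% to 35.3% in the other 3, and WT 1 was the shallowest. Of 15 microRNAs typical of spermatogenic cells, 14 had no read in any library and the other had 1 read in WT 2. Reads named as microRNA numbered 422 to 2453 per library, so the sperm label could not be checked against these markers. The blood list had 1 of 4 microRNAs with a read, 1 read in KO 1. The epididymal list had 3 of 5 with a read, 1 read in WT 2 and 5 in KO 2. The smooth muscle list had 2 of 2, with 1 read in WT 1 and 2 in WT 2, and neither neuronal microRNA had a read. With 2 libraries against 2, an exact two-sided permutation test cannot give a p below 0.333, and intervals given for single libraries are 95% Clopper-Pearson intervals that cover counting error only.

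The tRNA-Gly reads were almost all internal pieces of the molecule and not 5′ pieces. Of 28594 reads of tRNA-Gly-GCC, 28579 could be placed on the chain. Their 5′ ends lay at positions 16 to 19, in the D-loop region, in 95.9% of placed reads in WT 1, 94.8% in WT 2, 97.0% in KO 1 and 97.9% in KO 2. Only 0, 5, 4 and 0 reads, in the same order, began at the first base of the molecule and bore the 5′ mark. For WT 1 and KO 2, a count of 0 allows a share of up to 0.156% and 0.0233% of their tRNA-Gly reads, taken as 3 reads of the total and not as a Clopper-Pearson bound. No tRNA-Gly read bore a 3′-end or CCA-end mark, although 12 reads of tRNA-Gly-GCC ended at position 73, the last of the chain. RefSeq lists the tRNA-Gly-GCC genes at 71 nt, so position 73 falls in the CCA tail that is added to a mature tRNA. The 5′ ends before position 16 made up 1.71%, 1.99%, 1.04% and 0.509% of placed reads.

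At the other side, the reads stopped at one of 2 places. These were the last base of the anticodon, or the stretch from 46 to 53, around the variable loop, the T stem and the first bases of the T loop. The end at position 35 held 33.3% of placed reads in WT 1, 60.2% in WT 2, 50.8% in KO 1 and 62.0% in KO 2. The ends from 46 to 53 held 63.7%, 32.2%, 46.3% and 36.3%. Between them, at 36 to 45, lay 1.71%, 5.82%, 2.02% and 1.28%. WT 1 was thus the library richest in the longer pieces and WT 2 the one with most ends in between, and the genotypes overlapped for both main ends. Over all libraries the most used ends were 35 with 16070 reads, 52 with 7823, 51 with 1844 and 46 with 1086.

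The last base of a read was almost never A. This held for 2 of 30668 tRNA-Gly reads (0.00652%) and 4 of 285710 tRNA-Glu reads, against 0.202% of other nuclear tRNA reads, 9.07% of mitochondrial tRNA reads and 4.31% of all reads. The base that follows the anticodon of tRNA-Gly-GCC, at position 36, is A. Whether a terminal A was removed from some reads before deposition was not tested, so the end at 35 may be exact or 1 base short.

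These positions gave tRNA-Gly-GCC 2 length peaks. The first, 20 nt, was the modal length in all 4 libraries, with 33.2% of reads in WT 1, 60.3% in WT 2, 50.8% in KO 1 and 62.0% in KO 2. The shortest reads in the tables are also 20 nt, so reads that end at the anticodon and start after position 16 could not be seen. Among reads of at least 24 nt the modal length was 34 nt in both WT libraries and 35 nt in both KO libraries. Reads of 34 nt numbered 327, 415, 508 and 498, and reads of 35 nt 185, 264, 1386 and 1406. The 34-nt class was thus the larger one in each WT library and the 35-nt class in each KO library. Lengths of 21 to 28 nt made up 5.17% and 8.39% in WT 1 and WT 2 against 2.58% and 1.44% in KO 1 and KO 2, without overlap. The mean length of all tRNA-Gly-GCC reads was 29.3 and 24.9 nt in WT and 27.0 and 25.5 nt in KO, which overlapped.

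Fragments of tRNA-Glu from the same libraries had a different shape. Their 212 distinct sequences peaked at 21 nt in all 4 libraries, and reads of at least 24 nt made up 0.694%, 0.794%, 0.413% and 0.409%. In tRNA-Gly-GCC the same class made up 65.5%, 38.0%, 48.5% and 37.5%, above every tRNA-Glu value.

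By anticodon, tRNA-Gly-GCC was dominant in every library. It held 94.5% (interval 93.4 to 95.5) of tRNA-Gly reads in WT 1, 88.1% in WT 2, 94.6% in KO 1 and 94.5% in KO 2. WT 2 was the low one, and tRNA-Gly-CCC was high there, at 9.89% against 4.47% in WT 1, 4.53% in KO 1 and 4.50% in KO 2. tRNA-Gly-TCC held 1.04%, 1.95%, 0.910% and 0.977%. The single tRNA-Gly-ACC sequence had 6 reads in WT 2 and none elsewhere, and its annotation also names tRNA-Val-AAC and tRNA-Val-CAC, so it cannot be assigned to glycine.

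The 3 main tRNAs were cut to different lengths. tRNA-Gly-CCC reads were 20 nt long in 95.3%, 93.3%, 95.2% and 95.9% of cases and ended, like the short GCC read, with the anticodon. Reads of tRNA-Gly-TCC were mostly long: at least 24 nt in 75.0% of 20 reads, 87.5% of 120, 77.3% of 88 and 77.8% of 126. Their 20-nt share was 5.00%, 9.17%, 18.2% and 12.7%, which is lower than for both other anticodons in each library. The 20-nt classes do not hold the same piece, since TGGT through the anticodon spans 21 nt in the printed 38-nt TCC read. TCC reads of 21 nt numbered 3, 4, 3 and 9. Their share was also below the 20-nt share of GCC and of CCC in each library. Which piece the TCC reads of 20 and 21 nt came from was not tested.

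The first 20-nt CCC sequence had 65, 483, 324 and 435 reads, and differed from the 20-nt GCC read at 8 positions. The second had 17, 84, 92 and 120 reads and differed from the GCC read by the single substitution G18C, counted from the 5′ end of the read. This second sequence held 0.883%, 1.36%, 0.951% and 0.931% of tRNA-Gly reads. Genome-matched sequences held 99.84%, 99.79%, 99.84% and 99.96%, so it was among them, and it was annotated as tRNA-Gly-CCC. A read of this kind could still not be told apart from a GCC read with 1 sequencing error by its sequence alone. The source of these reads was not tested.

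Few sequences carried most of the reads. The 20-nt GCC read alone held 31.2%, 52.9%, 47.9% and 58.5% of tRNA-Gly reads. The 62 sequences found in all 4 libraries held 97.4% of the reads, whereas 122 sequences were found in 1 library only. WT 1 had 94 distinct sequences, WT 2 had 173, KO 1 had 150 and KO 2 had 142. At an equal depth of 1925 tRNA-Gly reads the expected number of distinct sequences was 94.0, 113, 80.4 and 71.2. That is 104 ± 13.7 (SD, n = 2) in WT against 75.8 ± 6.53 in KO, lower in both KO libraries (exact permutation p = 0.333, the smallest possible). This separation was lost when only sequences with at least 2 reads in a library were kept: the numbers were then 55.0, 97.1, 70.5 and 65.1, with WT 1 the lowest, and the difference between the means went from -27.9 to -8.30. That cut was made at full depth and removed the largest part in WT 1, the shallowest library. It took out 39 of 94 sequences there, against 51 of 173 in WT 2, 48 of 150 in KO 1 and 38 of 142 in KO 2.

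The share of tRNA-Gly among all reads was 0.935% (0.893 to 0.977) in WT 1 and 0.878% (0.856 to 0.900) in WT 2. It was 1.38% (1.35 to 1.40) in KO 1 and 1.73% (1.70 to 1.76) in KO 2. Both KO libraries were above both WT libraries, by 0.645 percentage points between the means (exact permutation p = 0.333). The order depended on the ribosomal RNA in WT 2: of reads outside ribosomal RNA, tRNA-Gly made up 1.45%, 2.76%, 1.98% and 2.51%, with WT 2 the highest. Among nuclear tRNA reads it made up 8.89%, 9.65%, 7.10% and 12.0%, again with overlap.

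No tRNA-Gly feature passed the test between genotypes. The edgeR quasi-likelihood test was run on all annotated names, on names split by length, and on single sequences, with Benjamini-Hochberg adjustment over each table. By name it called 0 of 64 features (0%), and by name and length 0 of 530 (0%). By sequence it called 18 of 2527 (0.712%), of which none was tRNA-Gly. The members tested were 3 names, 25 lengths and 43 of the 264 sequences, since the others had too few reads. At an unadjusted p under 0.05 2 names were higher and 1 lower over all names, and 19 higher and 17 lower over all lengths, and 127 higher and 144 lower over all 2527 sequences; among tRNA-Gly there were 0 names, 3 lengths (1 higher and 2 lower in KO) and 4 sequences, all lower in KO. DESeq2 and limma-voom also called 0 tRNA-Gly features at each level. The median log2 fold change of the 43 tRNA-Gly sequences was 0.03, beside 0.07 over all sequences tested, and that of the 25 lengths was -0.25, beside 0.01. A p that misses the threshold with 2 libraries a group does not show that the levels were equal.

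For tRNA-Gly-GCC as a whole, the normalised level was 9376 and 11552 CPM (counts per 1000000 of the TMM-scaled library size) in WT 1 and WT 2 and 14110 and 18510 in KO 1 and KO 2. Both KO libraries lay above both WT libraries, giving a log2 fold change of 0.64 with SE 0.41 (edgeR, adjusted p = 0.871). The values for tRNA-Gly-CCC were 443, 1298, 676 and 881 CPM, with a log2 fold change of -0.17 (SE 0.63, adjusted p = 0.966, edgeR). Those for tRNA-Gly-TCC were 103, 255, 136 and 191 CPM, with -0.15 (SE 0.74, adjusted p = 0.966, edgeR). Neither minor tRNA separated the genotypes, and in both WT 2 was the highest library. Scaling by library totals moved the median of all names by 0.26 and leaving ribosomal RNA out of the library size moved it to -0.47, and tRNA-Gly-GCC stayed above that median in each case, at 0.90 and 0.14. The sign for the minor tRNAs was not stable: the median of the 3 tRNA-Gly names was -0.15 with TMM and 0.22 with library totals.

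Among the tRNA-Gly length classes the 3 smallest p-values belonged to tRNA-Gly-GCC. Reads of 35 nt stood at 985, 569, 2157 and 2040 CPM, a log2 fold change of 1.44 (SE 0.44, adjusted p = 0.667, edgeR). Reads of 25 nt and 26 nt had log2 fold changes of -2.28 (SE 0.81) and -2.26 (SE 0.87), both with an adjusted p of 0.704. The 35-nt class thus lay higher in both KO libraries, but none of the 3 passed the adjusted threshold.

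Among single tRNA-Gly sequences, the 3 smallest p-values again belonged to tRNA-Gly-GCC, and 2 of them began at position 19. The read from 19 to 50 had 9, 21, 5 and 3 reads, a log2 fold change of -3.09 (SE 1.01, adjusted p = 0.217, edgeR). The read from 19 to 51 had 53, 113, 33 and 38 reads and -2.49 (SE 0.90, adjusted p = 0.266, edgeR). The read from 17 to 42 had 3, 36, 4 and 7 reads, most of them in WT 2, and -2.79 (SE 1.04, adjusted p = 0.283, edgeR). When WT 1 was left out, 9 tRNA-Gly sequences passed the adjusted threshold, 8 lower and 1 higher in KO, of 53 tested. The background was 488 calls among 3502 sequences (13.9%), 268 lower and 220 higher. Of these 9, 4 began at position 19 of tRNA-Gly-GCC, and that fit compares KO with WT 2 alone, the library rich in ribosomal RNA, whose spread is assumed to be that of the KO libraries.

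The clearest contrast between genotypes within the molecule was in the first base of the long GCC reads, a pattern noticed after the values were seen. It concerns the nested reads printed above, which all end at position 52 and lose 1 base at a time from their 5′ end. All reads ending at 52, whatever their start, numbered 782 in WT 1, 1023 in WT 2, 2897 in KO 1 and 3121 in KO 2.

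The 34-nt read that starts at 19 had 294 reads in WT 1, 303 in WT 2, 259 in KO 1 and 245 in KO 2. As a share of reads ending at 52 that is 37.6% (34.2 to 41.1), 29.6% (26.8 to 32.5), 8.94% (7.93 to 10.04) and 7.85% (6.93 to 8.85). The 35-nt read that starts 1 base earlier, at 18, had 123, 183, 1120 and 1150 reads, or 15.7%, 17.9%, 38.7% and 36.8%. Start 19 was thus the most frequent start in each WT library and start 18 in each KO library. For either start, the intervals of the WT libraries did not overlap those of the KO libraries. These intervals cover counting error within a library only, and reads are not replicates of a genotype.

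The mean share of start 19 was 33.6% ± 5.64 (SD, n = 2) in WT and 8.40% ± 0.771 in KO, a difference of -25.2 percentage points (exact permutation p = 0.333, the smallest possible). The ratio of start 19 to start 18 reads was 2.39 and 1.66 in WT and 0.231 and 0.213 in KO. Start 17 held 21.4%, 15.9%, 29.2% and 31.2%, higher in both KO libraries. Start 16 held 20.97%, 25.9%, 18.7% and 19.4%, a little lower in both KO libraries. Start 20 was rare in all, at 1.92%, 3.52%, 2.87% and 2.98%, and overlapped. These shares are taken within 1 end of 1 tRNA, so library size and ribosomal RNA do not enter their denominators. Whether depth, ribosomal RNA content or library preparation went with the starts of the reads was not tested.

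As levels, none of the single sequences of this series passed the test. The 35-nt read from 18 to 52 had 597, 260, 1593 and 1540 RPM (reads per 1000000 reads in the library), and a log2 fold change of 1.53 (SE 0.89, adjusted p = 0.543, edgeR). The 36-nt read from 17 had 167, 163, 847 and 974 reads and 0.98 (SE 0.88, adjusted p = 0.749, edgeR). The 37-nt read from 16 had 164, 265, 543 and 604 reads and 0.08 (SE 0.86, adjusted p = 0.990, edgeR), and its levels of 796, 377, 772 and 809 RPM overlapped, unlike its shares. The 33-nt read from 20 stood at 72.8, 51.2, 118 and 125 RPM, higher in both KO libraries, although its shares overlapped, with 0.55 (SE 0.87, adjusted p = 0.889, edgeR). The 34-nt read from 19 stood at 1427, 431, 368 and 328 RPM and -1.70 (SE 0.89, adjusted p = 0.486, edgeR). The gap between WT 1 and WT 2 was smaller per 1000000 reads outside ribosomal RNA, at 2207 and 1354, against 530 and 477 in KO. On both scales the 34-nt read was higher in both WT libraries than in both KO libraries.

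The contrast in the share of start 19, though not in the most frequent start, was also present at ends 51, 50 and 46 of tRNA-Gly-GCC. Among reads ending at 51, start 19 held 29.1%, 33.6%, 4.80% and 5.96%. Among those ending at 46 it held 24.3%, 26.9%, 6.62% and 3.10%, and among those ending at 50 it held 31.0%, 32.3%, 7.04% and 3.23%. The ratio of start 19 to start 18 was 2.52, 1.39, 0.157 and 0.194 at end 51, and 2.08, 1.85, 0.377 and 0.121 at end 46. In the values given for ends 51, 50 and 46 both WT libraries exceeded both KO libraries. End 45 did not show this separation. It had 12, 149, 134 and 101 reads, more in all than end 50 (396 against 258). The read from 19 to 45 stood at 0, 76.6, 27.2 and 11.5 CPM there, so WT 1 was the lowest library. The most frequent start changed with the end. At end 51 it was start 19 in both WT libraries but start 17, not 18, in both KO libraries. At end 50 it was neither start 19 nor start 18 in any library. At end 46 it was start 16 in all 4 libraries. The share of start 16 there was higher in both KO libraries, the opposite of end 52. These ends are different reads, but they share the libraries and the molecule and are not replicates.

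Among tRNA reads of at least 24 nt, sets that shared a name and the last 18 bases were compared by mean length, with at least 20 reads in every library. There were 48 such sets, of which 8 (16.7%) had a greater mean length in both KO than in both WT libraries and 19 a smaller one. All 4 tRNA-Gly sets, with ends at 52, 51, 50 and 46, were longer in KO, by 0.422 to 0.637 nt. Of 4 sets from other nuclear tRNAs, 0 were longer and 1 was shorter in both KO libraries, with differences from -0.0991 to 0.423 nt. Of 40 mitochondrial sets, 4 were longer and 18 shorter, from -6.81 to 1.81 nt. Longer reads in both KO libraries were thus a minority among these sets, and the difference between tRNAs was not tested. Most mitochondrial sets came from a single tRNA, mitochondrial tRNA-His-GTG, so the sets are not independent. Some sets had a mean of 24 nt, the shortest length allowed, in every library and could hardly differ. A set of this kind counted as longer in KO by 0.00117 nt. The tRNA-Gly sets hold the reads in which the start contrast was noticed, so they are not separate support for it.

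The other glycine tRNAs share the bases TGGT at the start of this stretch, but were too sparse for a like comparison. For tRNA-Gly-TCC, reads from the 1st base of TGGT numbered 6, 42, 10 and 20, those from the 2nd base 2, 3, 8 and 22, those from the 3rd base 0, 0, 4 and 1, and those from the 4th base 5, 16, 7 and 9. The share of the 4th base, which matches start 19 of tRNA-Gly-GCC, was 38.5%, 26.2%, 24.1% and 17.3%, lower in both KO libraries but on 13 to 61 reads a library. For tRNA-Gly-CCC, the 37-nt read from the 1st base had 2, 10, 3 and 10 reads and the shorter ones at most 1 read in any library.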

How the data were processed

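Small RNA of WT and Isca2 -/- sperm was analysed in 4 libraries, 2 of each genotype, grouped by the labels. The authors deposited 1 table per library with each distinct sequence of 20 to 45 nt, its whole read count, genome match and annotation, per the file headers. The aligner and annotation tool of these tables are not given in the sources used here; the submitters' processing notes list DESeq2 1.42.1, RSEM 1.3.1, Trim Galore 0.4.5 and STAR 2.6.1c without their roles. Molecular identifiers are not mentioned, so reads may not be independent molecules.

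Counts were summed by first annotation name, by name and length, and by sequence. Reads without annotation (8.71% to 20.4%) entered shares but not the fits. Fits used edgeR 4.0.16 (quasi-likelihood, filterByExpr, TMM, Benjamini-Hochberg, threshold 0.05) in R 4.3.3, with DESeq2 1.42.0, limma-voom 3.58.1, other scalings and filters, and left-out libraries as alternatives. Shares and distinct sequences (hypergeometric expectation) were compared by exact permutation. tRNA-Gly-GCC reads were placed by exact match on a chain of 4 reads overlapping by at least 15 nt. A planned length comparison of 5′-marked reads gave no value, since 2 libraries had no such read; all tRNA-Gly-GCC reads were used instead.

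Sequences named were the 3 most abundant in each anticodon and form with at least 1% of tRNA-Gly reads, the most abundant of each other class, and the 3 features with the smallest p per fit where none was called; the start series was added after its values were seen. The members and lists were chosen with earlier results of these data known.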

Additional observations from a re-analysis of the deposited data

How the results depend on the processing

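The higher tRNA-Gly share in KO kept its direction but depended on the denominator: the difference between the means was 0.196 percentage points with genome-matched sequences only, 0.845 of annotated reads, 0.145 of reads outside ribosomal RNA and 0.292 of nuclear tRNA reads. The difference in distinct sequences was -8.30 when only sequences with at least 2 reads were kept. The start 19 difference was -20.7 percentage points at end 46, and -29.2 to -21.2 at end 52 when each library was left out in turn. The mean length of tRNA-Gly-GCC reads turned from lower to higher in KO, to 1.10 nt, for reads of at least 24 nt; the causes of these changes were not tested. Leaving out each library in turn moved the mean length difference from -3.03 to 1.38 nt (1.38 nt without WT 1), the 20-nt share from -3.84 (without WT 1) to 23.3 percentage points, the 5′-marked share from -0.0604 to 0.0207 points, the tRNA-Gly share from 0.470 to 0.821 points and the number of tRNA-Gly sequences called from 0 to 9, with 9 only without WT 1.

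Over 15 alternatives, the log2 fold change of tRNA-Gly-GCC ran from 0.14 to 0.90 (adjusted p 0.382 to 0.997).

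Without a filter on low counts, and with the full annotation string, no tRNA-Gly feature was called either. Counts over all features moved more: single sequences called were 18 in the reported fit, 14 with DESeq2, 10 with RLE size factors, 8 with a minimum of 10 CPM in 2 libraries, 1 with genome-matched sequences and 0 with library totals, limma-voom or library sizes without ribosomal RNA; among names split by length, 8 were called with DESeq2 and 21 without a filter. Leaving out WT 1 called 488 sequences and leaving out KO 1 called 0. Libraries with the same replicate number did not deviate together (r = -0.25 by name, -0.10 by length and -0.10 by sequence). With 2 libraries a genotype, this cannot show whether libraries with the same number were prepared together. With the replicate block, 0 names, 2 lengths and 14 sequences were called, and with the crossed replicate block 0, 4 and 9; 0 of them were tRNA-Gly in either, and tRNA-Gly-GCC had a log2 fold change of 0.63 in both. Depth limits the comparison, at 1925 to 12896 tRNA-Gly reads a library: 43 of 264 sequences had enough reads to be tested.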
